A study of Mus musculus with 8 samples.

Results

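The genes described here are 10 genes of the epithelial junction and of its control. They are Cdh1, the claudin genes Cldn3, Cldn4, Cldn6 and Cldn7, Ocln, Epcam, and the regulators Grhl2, Elf3 and Esrp1. They were chosen by name, and every probe whose gene symbol, current or older, was on this list was taken. This gave 11 probes of the 25697 on the array and 9 of its 16590 genes. Epcam has no probe listed in the annotation used here and was not analysed.

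Total RNA of mouse embryonic fibroblasts (MEFs) was measured on 8 Illumina bead arrays. The 5-aza-dC group was grown for 72 h with 5-aza-2'-deoxycytidine, an analogue of deoxycytidine that is built into DNA and traps DNA methyltransferases. The control group was grown for 72 h with the solvent DMSO. The labels give a dose of 1 µM, the study's methods give a lower dose, and which of them holds for these arrays is not settled here. The cells of both groups carry the genotype Trp53-/- Dnmt1+/+, so that all of them lack the tumour suppressor p53 and have an intact gene for the maintenance DNA methyltransferase. Each group has 2 biological replicates with 2 technical arrays each. The labels do not say that the replicates were separate cultures, their background strain is unknown, and the sources used here do not say whether the cells descend from 1 embryo or clone. P-values therefore measure only the spread between these samples. Array means ran from 295 to 376 intensity units. On each array 12841 to 13595 probes were detected, which means that fewer than 5% of the negative control beads were brighter than the probe (detection p under 0.05).

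Epithelial cells form closed sheets in which neighbouring cells are joined by adherens junctions, tight junctions and desmosomes. E-cadherin, the product of Cdh1, holds the adherens junction together, while claudins and occludin form the strands of the tight junction that seal the gap between cells. Grainyhead-like 2 (Grhl2) is a transcription factor that maintains Cdh1 and claudin genes in the mouse epithelia where it is expressed, Elf3 is an epithelial factor of the ETS family, and Esrp1 is an RNA-binding protein that sets epithelial splicing. Fibroblasts have no such sheets, and repressors of the Snail and Zeb families, which bind E-box sequences, keep many of these genes low in mesenchymal cells. Many silent genes in somatic cells also carry methylated cytosines at CpG dinucleotides, the sites on which 5-aza-dC acts.

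The promoter windows of the claudin genes are shown as a description, and no relation between them and the claudin values below was tested. A RefSeq-based table of promoter windows (build GRCm38.p6, 250 bases before to 50 bases after the start of a transcript) held 9 windows of 7 of the 10 genes. No window was listed for Cdh1, Grhl2 and Esrp1. The windows lie at chr17:23679115-23679414 on the plus strand for Cldn6, at chr5:134946885-134947184 on the minus strand for Cldn4, at chr5:134985964-134986263 on the plus strand for Cldn3, and at chr11:69964529-69964828 and chr11:69965171-69965470 on the plus strand for the first and the last of the Cldn7 starts. Each is written 5′ to 3′ on the strand of its gene, with every CpG in capitals.
Cldn6: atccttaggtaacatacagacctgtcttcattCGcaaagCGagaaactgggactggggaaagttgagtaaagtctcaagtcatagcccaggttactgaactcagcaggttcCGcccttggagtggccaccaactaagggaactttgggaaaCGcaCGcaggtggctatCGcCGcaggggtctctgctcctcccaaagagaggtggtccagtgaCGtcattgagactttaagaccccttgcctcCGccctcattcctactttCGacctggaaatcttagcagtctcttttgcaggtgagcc
Cldn4: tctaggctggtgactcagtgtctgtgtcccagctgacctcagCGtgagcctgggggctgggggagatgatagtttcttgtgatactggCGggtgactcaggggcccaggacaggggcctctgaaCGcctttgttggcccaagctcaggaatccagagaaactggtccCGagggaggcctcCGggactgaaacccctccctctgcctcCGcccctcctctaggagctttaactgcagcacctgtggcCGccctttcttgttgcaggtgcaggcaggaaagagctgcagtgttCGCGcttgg
Cldn3: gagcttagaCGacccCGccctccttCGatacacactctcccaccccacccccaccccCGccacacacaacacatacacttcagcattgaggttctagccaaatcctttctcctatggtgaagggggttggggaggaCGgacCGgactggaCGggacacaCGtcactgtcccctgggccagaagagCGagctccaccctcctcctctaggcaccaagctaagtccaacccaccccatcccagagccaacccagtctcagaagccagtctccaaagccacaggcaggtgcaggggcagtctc
Cldn7, first start: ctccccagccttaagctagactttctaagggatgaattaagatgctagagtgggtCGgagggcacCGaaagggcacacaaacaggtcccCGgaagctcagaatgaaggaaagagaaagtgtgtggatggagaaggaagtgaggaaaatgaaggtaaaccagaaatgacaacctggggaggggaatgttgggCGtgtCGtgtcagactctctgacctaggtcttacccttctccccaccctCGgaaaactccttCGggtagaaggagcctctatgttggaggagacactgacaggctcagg
Cldn7, last start: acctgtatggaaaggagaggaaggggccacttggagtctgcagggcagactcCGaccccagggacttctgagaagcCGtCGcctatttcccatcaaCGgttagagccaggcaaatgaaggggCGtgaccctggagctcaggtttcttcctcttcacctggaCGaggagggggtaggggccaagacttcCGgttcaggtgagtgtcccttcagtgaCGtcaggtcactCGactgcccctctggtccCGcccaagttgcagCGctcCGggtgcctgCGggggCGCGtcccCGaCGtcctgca

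The Cldn6 window holds 10 CpGs, the Cldn4 and Cldn3 windows hold 9 each, and the Cldn7 windows hold 7 and 17. Over all 32851 windows of the table the median was 7 CpGs, with quartiles of 3 and 20, so that these claudin windows lie between the quartiles. The other windows held 11 CpGs for Epcam, 12 for Elf3, and 24 and 17 for the overlapping windows of Ocln. The E-box CACCTG, which Snail and Zeb proteins bind, was searched on both strands. It was present in 8 of the 9 windows, against 20.2% of all windows, and the first Cldn7 window was the exception. The overlapping windows of Ocln share a site, and the window of Epcam, which was not analysed, is counted too. The E-boxes of Cldn4 begin at positions -14 and 11 and those of Cldn6 at -93 and 40, counted from the transcript start as position 0. The Grainyhead motif AACCNGTT, searched likewise, was in 0 of the 9 windows, so that it overlapped no E-box there, and in 2.09% of all windows. These matches describe the letters of the windows only, and DNA methylation was not measured on these arrays.

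After 5-aza-dC, Grhl2 was clearly above background on every array. Cldn6 was detected on every 5-aza-dC array too, at signals much nearer the detection limit. Neither was detected in any control array. Cldn4 passed the test with a small difference close to the detection limit, though not in every alternative fit. Cdh1 and Cldn7, which were near that limit in both groups, did not pass the test. Cldn3, Ocln, Esrp1 and all 3 probes of Elf3 were undetected on all 8 arrays. Of the 9 genes with a probe, 5 passed the detection filter (detection p under 0.05 on at least 2 arrays) and were tested with limma on normalised log2 levels, with technical arrays averaged (n = 2 per group) and p-values adjusted over all tested genes. Of these 5, 3 were higher in 5-aza-dC cells, 0 were lower and 2 did not pass. Over all 9502 tested genes, 26.3% were called higher and 25.7% lower, 52% in either direction. Grhl2, Cldn6 and Cldn4 passed the filter through 5-aza-dC arrays alone, so their count is given to account for the genes and is not read as a result. No control array detected 551 of the tested genes, and 404 of those were called higher. The number of genes called higher was 2497, and it was 1568 without control replicate 1 and 1618 without control replicate 2. The summed signal of 7 keratins, markers of epithelium, was 1647 to 2031 in 5-aza-dC arrays and 357 to 376 in control arrays. Its part in the results was not tested. In these bulk samples, more cells of a type and more RNA per cell cannot be told apart.

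**Figure D1:**
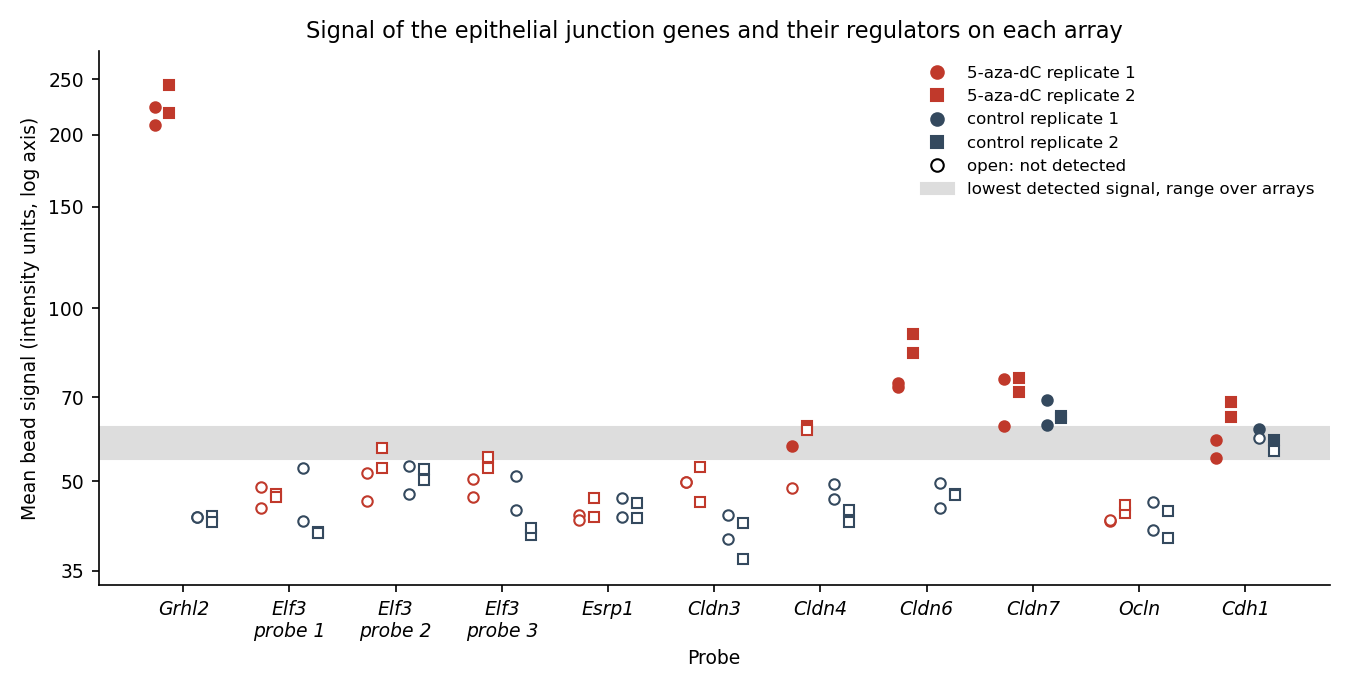
Mean bead signal (intensity units, log axis) of the 11 probes on each of the 8 arrays, with 5-aza-dC arrays in red to the left of control arrays in blue. Circles and squares are replicates 1 and 2, filled symbols are detected (p under 0.05), and the grey band is the range of the lowest detected signal over arrays (54.6 to 62.1). Grhl2 lies at 208 to 244 in 5-aza-dC cells against 42.5 to 43.6 in control cells, and the brightest value of the other probes is 90.2.

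Among the regulators, Grhl2 had the largest difference of the 5 tested genes. Its probe (the gene lies on chromosome 15) gave signals of 208 and 223 on the arrays of 5-aza-dC replicate 1 and of 218 and 244 on those of replicate 2, against 43.3 and 43.3 on the arrays of control replicate 1 and 43.6 and 42.5 on those of control replicate 2. No 5-aza-dC array came near the control arrays, whose detection p lay between 0.432 and 0.747. The normalised log2 level was 7.63 ± 0.02 in 5-aza-dC cells and 4.31 ± 0.02 in control cells (SD, n = 2 each), a log2 fold change of 3.32 with a standard error of 0.09 (limma, adjusted p = 2.399e-05). Since control cells were below detection, the size of the difference is only bounded. With each control array raised to the level of its dimmest detected probe, Grhl2 was at least 6.76-fold higher at the offset of 16 added to the signals, and at least 3.57-fold higher in the deposited normalised values, the lowest bound of the 4 background corrections and scalings run. Grhl2 ranked 28 of the 9502 tested genes by measured log2 fold change, and 18 of those 28 genes, Grhl2 among them, were undetected in control and called higher.

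The size of the Grhl2 difference moved with the background correction, though its call did not. The log2 fold change was 2.11 with an offset of 50 in place of 16 and 2.28 in the deposited values. The other regulators stayed at background. Esrp1 had signals of 42.8 to 46.8 in 5-aza-dC cells and 43.2 to 46.8 in control cells, ranges that overlap. The 3 Elf3 probes had signals of 45.0 to 57.2 in 5-aza-dC cells and 40.4 to 53.1 in control cells, also overlapping. Tested without the detection filter over all 25697 probes, 2 of them had log2 fold changes of 0.03 and -0.02 and did not pass. The third had 0.16 (limma adjusted p = 0.04684), with signals of 47.0 to 55.1 in 5-aza-dC cells and 40.4 to 51.1 in control cells, so that single arrays overlapped.

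The claudins differed in detection. Cldn6, a claudin of early embryonic epithelia, gave signals of 72.9 and 74.1 on the arrays of 5-aza-dC replicate 1 and 83.5 and 90.2 on those of replicate 2, against 49.6 and 44.9 for control replicate 1 and 47.5 and 47.4 for control replicate 2. The groups did not overlap, and the lowest 5-aza-dC array was well above the brightest control array. The log2 level was 5.63 ± 0.18 in 5-aza-dC cells and 4.41 ± 0.04 in control cells (SD, n = 2 each), with a log2 fold change of 1.21 ± 0.12 (standard error, limma adjusted p = 0.0006087). Against the detection limit in control cells Cldn6 was at least 1.69-fold higher at the offset of 16 and at least 1.30-fold higher in the deposited values, the lowest of the same 4 bounds. The log2 fold change was 0.59 with an offset of 50 and 0.70 in the deposited values, and the call remained.

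Cldn4, which lies next to Cldn3 on chromosome 5, was detected on 2 of the 4 arrays of 5-aza-dC cells. Its signals were 48.7 and 57.7 for 5-aza-dC replicate 1 and 62.3 and 61.4 for replicate 2, against 49.5 and 46.7 for control replicate 1 and 42.5 and 44.6 for control replicate 2. The ranges overlap, since 1 of the 5-aza-dC arrays lay below the brightest control array. The log2 level was 4.75 ± 0.16 in 5-aza-dC cells and 4.37 ± 0.05 in control cells (SD, n = 2 each), and the log2 fold change of 0.38 ± 0.11 (standard error) passed the test with an adjusted p of 0.02916 in limma. No difference remained against the detection limit, so no fold is given. The call was lost without control replicate 1 (log2 fold change 0.42, limma adjusted p = 0.05624), without control replicate 2 (0.35, adjusted p = 0.1041), and with single arrays and the biological replicate as a random block (adjusted p = 0.06378).

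Cldn3 was brighter on all 4 arrays of 5-aza-dC cells than on any control array without being detected on any of them. Its signals were 49.9, 49.97, 46.0 and 53.0 in 5-aza-dC cells (replicate 1, then replicate 2), against 39.7, 43.8, 36.7 and 42.4 in control cells. Tested without the detection filter, its log2 fold change was 0.19 (limma adjusted p = 0.01541 over 16590 genes). Without the filter 4 of the 9 genes, the 3 above and Cldn3, were higher and 0 lower, where 15% of all genes were called higher and 14.6% lower, 29.6% in either direction. Both 5-aza-dC replicates lay above both control replicates for 5 of the 9 genes, against 29.2% of all genes. The 9 genes then had a median log2 fold change of 0.19, against -0.01 over all genes.

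Cldn7 was the only one of the tested genes detected on all 8 arrays. Its signals were 62.3 and 75.4 for 5-aza-dC replicate 1 and 71.4 and 75.6 for replicate 2, against 69.4 and 62.5 for control replicate 1 and 64.6 and 64.9 for control replicate 2. Single arrays of the groups overlapped. The log2 fold change was 0.19, with a 95% confidence interval from -0.04 to 0.41 (limma adjusted p = 0.1435). Ocln, the gene of occludin, had signals of 42.8 to 45.5 in 5-aza-dC cells and 39.9 to 46.0 in control cells, and none of these was above background.

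**Figure D2:**
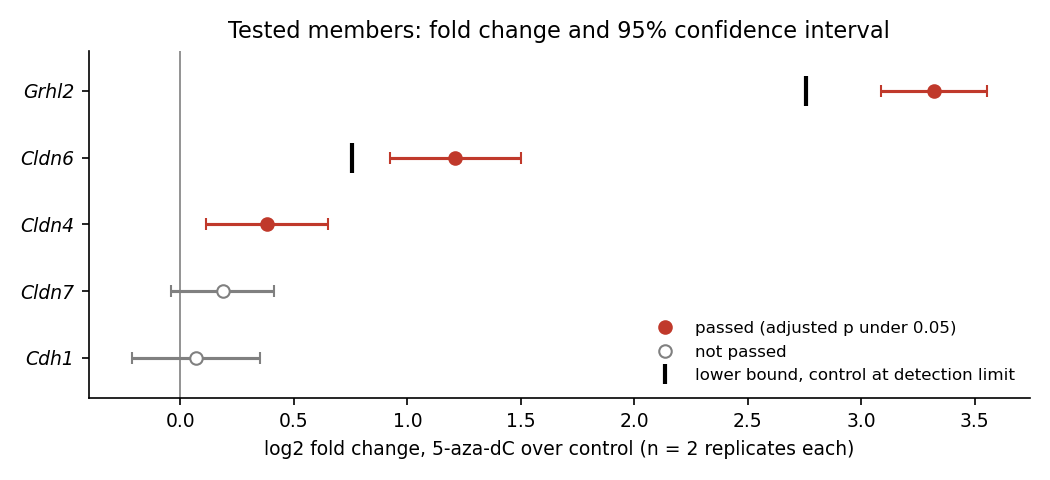
Log2 fold change of 5-aza-dC over control (horizontal axis) of the 5 tested genes, with points for the limma estimate (n = 2 replicates per group) and bars for its 95% confidence interval. Red points passed the test, and the black marks are the lower bounds of Grhl2 and Cldn6 at the offset of 16. The interval of Grhl2 lies far above those of the other genes, and those of Cldn7 and Cdh1 include 0.

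Cdh1, the gene of E-cadherin, showed no difference that could be told from the replicate spread. Its signals were 55.0 and 59.1 for 5-aza-dC replicate 1 and 64.8 and 68.8 for replicate 2, against 61.6 and 59.6 for control replicate 1 and 59.0 and 56.5 for control replicate 2. Of 5-aza-dC replicate 1, 1 array lay below the dimmest control array and the other among the control arrays, while both arrays of replicate 2 lay above the brightest. The probe was detected on all 4 arrays of 5-aza-dC cells and on 2 control arrays, with signals that stayed near the detection limit. The log2 fold change was 0.07, with a 95% confidence interval from -0.22 to 0.35 (limma adjusted p = 0.6513), and it was -0.06 without 5-aza-dC replicate 2. The interval leaves out a rise of the size measured for Cldn6 or Grhl2.

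The genes next to these genes on the chromosome did not share a direction. Cdh3, the P-cadherin gene beside Cdh1, was lower in 5-aza-dC cells (log2 fold change -0.67, limma adjusted p = 0.005359), a call that was lost without control replicate 2 (-0.56, adjusted p = 0.06591). Beside Cldn6, Cldn9 had a log2 fold change of 0.01 (adjusted p = 0.964) and Tnfrsf12a, the gene of a receptor of the TNF family, one of 1.70 (adjusted p = 0.0005183). Mettl27, on the other side of Cldn4, was lower at -0.997 (adjusted p = 0.001833). Ncald, the neighbour of Grhl2 with a tested probe, had a log2 fold change of 0.03 (adjusted p = 0.8504). The other tested neighbours did not pass either. They were Calm2 beside Epcam (0.14), Abhd11 beside Cldn3 (0.13), Elp5 beside Cldn7 (-0.12) and Rnpep beside Elf3 (0.23).

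The 5 tested genes whose profile over the 8 arrays was most like that of Grhl2 were Adgrg3, Tex19.2, Krt18, Fgf7 and Dusp2. Likeness was measured as the root-mean-square difference of log2 levels after each probe was centred on its own mean, and it ran from 0.08 for Adgrg3 to 0.10 for Dusp2. All 5 were higher in 5-aza-dC cells, since the measure takes in the difference between the groups. Tex19.2 belongs to a gene family active in germ cells, and Krt18 codes for a keratin of simple epithelia. Fgf7, a growth factor made by mesenchymal cells, was the only one of the 5 detected in control cells.

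Around these genes the pathway was described by lists chosen by function, each by its counts beside the shares of all tested genes given above. The median log2 fold change of all tested genes was -0.02. Of 21 other claudin and claudin-like genes, 17 had a probe, 9 were undetected on every array and 8 were tested. Of these, 4 were higher and 2 lower. Since 3 of the 4 passed the filter through 5-aza-dC arrays alone, the median over the 8 (0.40) is not read, and over all 17 genes without the filter it was 0.03. The other higher gene was the claudin-like Cldnd1 (0.42). Its call was lost with arrays scaled to their median (0.31, limma adjusted p = 0.1101) and with the replicate number as a block (adjusted p = 0.07831). Cldn11, the claudin of myelin and of Sertoli cells, had a log2 level of 5.40 and 5.14 in the 5-aza-dC replicates against 4.39 and 4.39 in the control replicates, and was higher (log2 fold change 0.88, adjusted p = 0.0017). Cldn15, a claudin of the intestine, was higher by 0.82 and Cldn18, known from lung and stomach, by 0.78, and both were undetected on every control array, as was Cldn11. At the lowest of the 4 bounds, the rises were at least 1.14-fold for Cldn11, 1.22-fold for Cldn15 and 1.08-fold for Cldn18. Cldn1, a claudin of the epidermal barrier, was lower (log2 fold change -0.69, adjusted p = 0.01856), and without control replicate 2 it no longer passed (adjusted p = 0.05367), which left 1 lower claudin, Cldn34c1 (-1.07, adjusted p = 0.006279). Cldn2, Cldn8, Cldn10, Cldn14 and Cldn16, among others, were undetected on every array.

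Of 27 tight junction partners and polarity genes, 21 had a probe and 13 were tested, with 4 higher, 2 lower and a median of 0.13 (0.07 over all 21 without the filter). Of the 4, Cgnl1 (0.39) passed the filter through 5-aza-dC arrays alone. It was at least 1.06-fold higher at the lowest of the 4 bounds, and its log2 fold change was 0.31 without control replicate 1. Jam2, a junctional adhesion molecule also found in endothelium, had log2 levels of 7.53 and 7.71 in the 5-aza-dC replicates against 5.49 and 5.25 in the control replicates, a log2 fold change of 2.25 (adjusted p = 0.0001195). Ybx3, a Y-box protein that binds the scaffold ZO-1, was higher by 0.99 and the polarity scaffold Patj by 0.69. The 3 kept probes of Patj ran from 0.29 to 0.69, and 2 of them passed. Pard6a, a polarity adaptor, was lower at -0.85 (adjusted p = 0.005168), and Jam3 was lower at -0.54 (adjusted p = 0.01348) but not without control replicate 1 (adjusted p = 0.1229). Tjp1, the gene of ZO-1, did not pass (-0.33, adjusted p = 0.08396). It passed in 5 of the 16 alternative fits. These include arrays scaled to their median (-0.44, limma adjusted p = 0.04508) and the fit without 5-aza-dC replicate 2 (-0.46). The count of lower genes was 4 without 5-aza-dC replicate 1 and 1 without control replicate 1. F11r, Marveld2, Marveld3, Lsr and Tjp3, which code for further proteins of epithelial tight junctions, were undetected on every array.

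Of 24 genes of adherens junctions and desmosomes, 20 had a probe and 12 were tested, with 3 higher, 4 lower and a median of -0.09 (-0.0023 over all 20 without the filter). The higher genes were Ppl, the desmosomal linker periplakin (log2 fold change 1.10), Nectin3, an adhesion molecule of the adherens junction (0.95), and Pkp1, a desmosomal plaque protein that was undetected in control cells (0.76, at least 1.13-fold at the lowest of the 4 bounds). The second probe of Ppl gave 0.14. The lower genes were Nectin2 (-1.36), Ctnnal1, which is related to alpha-catenin (-0.88), Cdh3 (-0.67) and Pkp2 (-0.49). Pkp2 lost its call without control replicate 1 (adjusted p = 0.1549), without control replicate 2 (adjusted p = 0.1459) and with the replicate number as a block (adjusted p = 0.06778), and only Nectin2 and Ctnnal1 were lower without control replicate 2. The desmosomal cadherins Dsg2, Dsg3, Dsc2 and Dsc3 and the plaque protein gene Jup were undetected on every array. Of 13 other cadherins 11 had a probe, 8 were undetected on every array and 3 were tested, with 0 higher and 2 lower. Cdh11, the cadherin of mesenchymal cells, was lower at -1.94 (adjusted p = 0.0001462), with log2 levels of 6.58 in 5-aza-dC cells and 8.52 in control cells. Cdh13 was lower at -0.89 for its brightest probe, while its other kept probe gave 0.05. Cdh2, the gene of N-cadherin, had a log2 fold change of 0.10 (adjusted p = 0.5773) that turned to -0.08 without 5-aza-dC replicate 1 and to -0.02 with arrays scaled to their median.

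**Figure D3:**
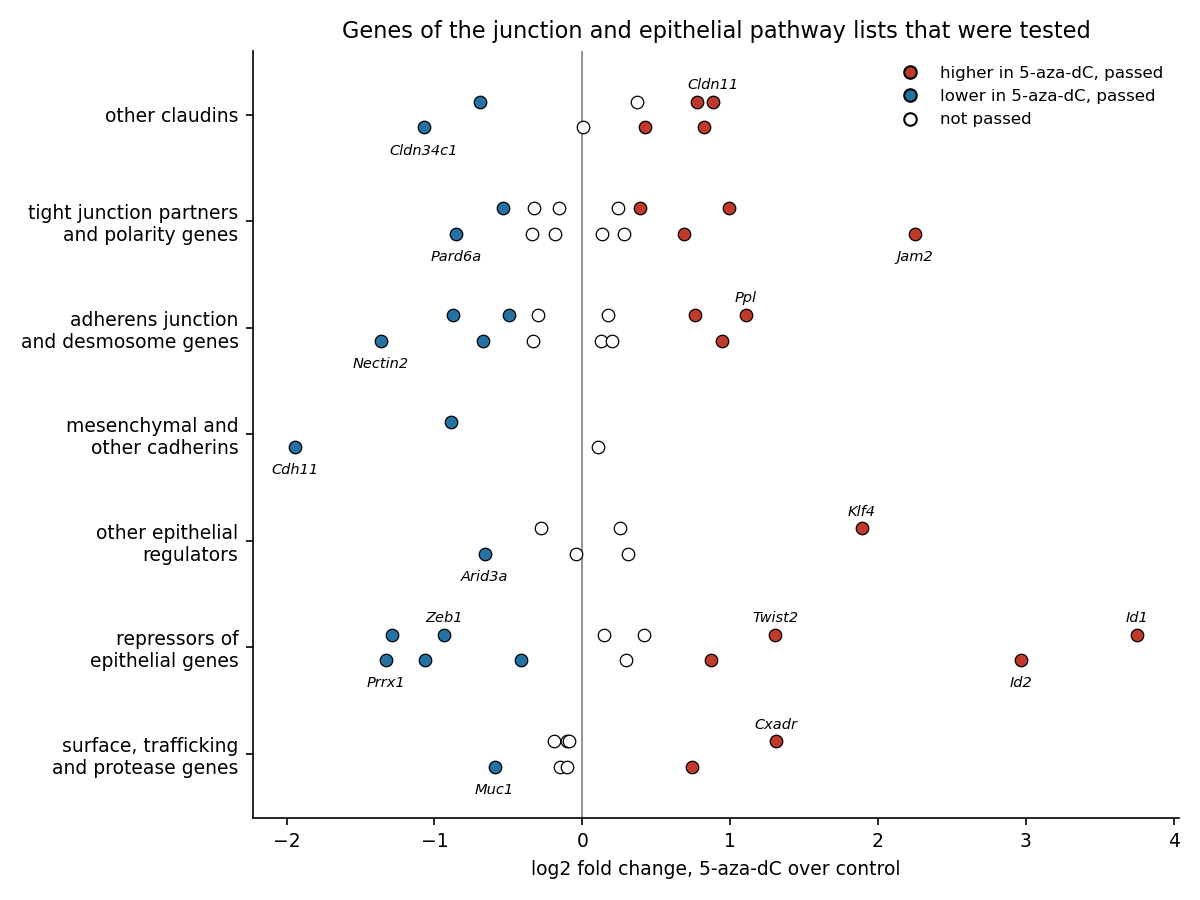
Log2 fold change of 5-aza-dC over control (horizontal axis) of every tested gene in 7 lists of junction and epithelial genes (rows), 1 point per gene. Red points were higher, blue points lower and white points did not pass the test. Points lie on both sides of 0 in all lists, with Id1 (3.75), Id2 (2.97) and Jam2 (2.25) farthest to the right and Cdh11 (-1.94) farthest to the left.

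Of 23 other epithelial regulators, 21 had a probe, 15 were undetected on every array and 6 were tested, with 1 higher and 1 lower. Klf4, a zinc finger factor of the epidermis and of pluripotent cells, was higher with log2 levels of 8.47 and 8.78 in the 5-aza-dC replicates against 6.78 and 6.68 in the control replicates (log2 fold change 1.89, adjusted p = 0.0002308). Arid3a, a DNA-binding protein, was lower at -0.66 (adjusted p = 0.00737). There were 2 higher genes without 5-aza-dC replicate 1 and 2 lower genes without 5-aza-dC replicate 2. The relatives of Grhl2 and Esrp1 were at background. The 2 probes of Grhl1 had signals of 39.8 to 60.3 in 5-aza-dC cells and 38.1 to 49.3 in control cells, and Grhl3 had signals of 45.3 to 50.5 in 5-aza-dC cells and 45.0 to 49.98 in control cells. Esrp2 had signals of 52.9 to 57.6 in 5-aza-dC cells and 45.0 to 51.2 in control cells, ranges that did not overlap although no array detected the gene. Tested without the filter, log2 fold changes were 0.29 for Grhl1 (adjusted p = 0.009857), -0.01 for Grhl3 (adjusted p = 0.9369) and 0.23 for Esrp2 (adjusted p = 0.008513). Trp63, the gene of the epidermal factor p63, was lower at -0.31 (adjusted p = 0.01578), with signals of 44.5 to 47.3 in 5-aza-dC cells and 51.0 to 56.0 in control cells, none of them detected. Without the filter the list thus held 3 higher genes (Klf4, Grhl1 and Esrp2) and 3 lower (Arid3a, Trp63 and Rbm47, which gained its call), with a median of -0.02. Ovol1 and Ovol2, zinc finger factors that repress mesenchymal genes, were undetected on every array.

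The list of repressors of epithelial genes and their partners held 16 genes, of which 12 were tested, with 4 higher and 5 lower. The median was 0.22 (0.11 over the 14 with a probe without the filter). The list includes Id1, Id2 and Id3, whose products act against E-proteins. Id1 and Id2 are among the 4 higher genes, beside Snai1 and Twist2, so the count and the median do not describe repressors alone. Zeb1, a direct repressor of Cdh1, was lower, with log2 levels of 9.16 and 8.94 in the 5-aza-dC replicates against 9.88 and 10.10 in the control replicates (log2 fold change -0.94, adjusted p = 0.002703). Zeb2 did not pass (0.42, adjusted p = 0.06931). It passed in 4 of the 16 alternative fits. These include single arrays with the biological replicate as a random block (limma adjusted p = 0.009536) and the fit without 5-aza-dC replicate 2 (0.60). Snai1, the gene of Snail, was higher, with log2 levels of 8.46 and 8.63 in the 5-aza-dC replicates against 7.74 and 7.61 in the control replicates (0.87, adjusted p = 0.001796), and Snai2 and Tcf3 have no listed probe and were not analysed. The members of a family thus did not move together. Of the Twist genes, Twist2 was higher at 1.30 and Twist1 lower at -0.41, a call lost without control replicate 1 (adjusted p = 0.2062), without control replicate 2 (adjusted p = 0.1747) and with the replicate number as a block (adjusted p = 0.08962). Snai3 was lower at -1.06. The E-protein gene Tcf4 was lower at -1.29 and Prrx1, a homeobox gene of limb mesenchyme, at -1.33, with its 4 probes between -1.94 and -0.51. Id1 and Id2, whose products bind E-proteins and keep them off DNA, had the largest differences of this list. Id1 had log2 levels of 9.78 and 10.16 in the 5-aza-dC replicates against 6.30 and 6.15 in the control replicates, a log2 fold change of 3.75 (adjusted p = 4.906e-05). Id2 was higher by 2.97 (adjusted p = 0.0001928), and its other probe by 1.499, while Id3 did not pass (0.29, adjusted p = 0.2515), and it passed without 5-aza-dC replicate 1 (0.57, adjusted p = 0.001966).

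Among 25 other genes of the epithelial surface, trafficking and proteases, 22 had a probe, 13 were undetected on every array and 8 were tested, with 2 higher, 1 lower and a median of -0.10 (-0.0032 over all 22 without the filter). Cxadr, the adenovirus receptor of tight junctions, was higher at 1.31 (adjusted p = 0.0007039), and Lad1, which codes for a filament protein of the basement membrane, was undetected in control cells and higher by 0.74 (at least 1.07-fold at the lowest of the 4 bounds). Muc1, an epithelial mucin, was lower at -0.59 (adjusted p = 0.006279) for its brightest probe, which was detected on 2 of the 5-aza-dC arrays. Its other kept probe gave -0.34 and did not pass. St14, Spint2, Rab25 and Ap1m2, which are expressed widely in epithelia, were undetected on every array.

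Markers of cell types also differed between the groups, and their part in the results was not tested. Of the 7 keratins listed as epithelial markers, 5 were tested, 4 were higher and 1, Krt7, did not pass (0.09, adjusted p = 0.4957). Since 3 of the 4 passed the filter through 5-aza-dC arrays alone, the count among tested keratins is not read. Over all 7 without the filter, 4 were higher and 0 lower, where 15% of all genes were called higher. Krt8, Krt18 and Krt14 were undetected on every control array and higher, at least 27.8-fold, 7.38-fold and 11.6-fold at the offset of 16 and at least 12.7-fold, 3.84-fold and 5.69-fold in the deposited values, the lowest of the 4 bounds. Krt19 had a log2 fold change of 2.91. Krt5 and Krt20 were undetected on every array. All 11 fibroblast markers with a probe were detected in every control array, and 10 of them in every 5-aza-dC array, Lum being the exception. The summed fibroblast signal was 33149 to 38672 in 5-aza-dC arrays and 57099 to 61555 in control arrays, with 7 markers lower, among them Col3a1 (-4.49), Dcn (-2.80) and Pdgfrb (-2.38), and Thy1 higher (0.42, adjusted p = 0.04578), though not without either control replicate (adjusted p = 0.2423 and 0.2472) or without 5-aza-dC replicate 2 (0.07739). Vim, the gene of the mesenchymal filament vimentin, did not pass (0.15, adjusted p = 0.6219). Among blood, endothelial, and germ and pluripotent cell markers, 5 were tested. Ptprc, Itgam, Kdr, Tek, Cdh5, Pou5f1 and Dppa3 were undetected on every array, Cd3e and Nanog were lower and undetected after 5-aza-dC, and Emcn, Ddx4 and Dazl were higher, Dazl by at least 39.0-fold at the offset of 16 and 17.4-fold in the deposited values.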

How the data were processed

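Per probe and array, the authors deposited a mean bead signal, an intensity (linear scale, background not subtracted), and a detection p-value. The deposited normalised intensity values were made with lumi (version not given in the sources used here), for which the study's methods name background subtraction, a variance-stabilising transformation and robust spline normalisation. The probe annotation is that of the array of RefSeq content, and the methods name the whole-genome array of the same maker.

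Background correction and quantile normalisation of the signals used limma 3.58.1 in R 4.3.3, with data.table at version 1.17.8. Negative controls were inferred from the detection p-values, the offset was 16 and levels are log2 values. The detection filter (p under 0.05 on at least 2 of 8 arrays) kept 14308 of 25697 probes, and each of 9502 genes was tested by its brightest kept probe. Symbols came from the probe annotation and were updated through Entrez identifiers (23962 probes) or accessions (9 probes), and 1719 probes are not listed. limma was fitted to the means of technical arrays, with moderated variances, a variance trend and two-sided tests (2 residual and 3.82 prior degrees of freedom), and p-values were adjusted by the Benjamini-Hochberg method at 0.05. The median standard error was 0.12 on the log2 scale, and precision is limited by the number of biological replicates. The fit was tested on simulated data. Fold changes are 5-aza-dC over control. "At least" marks genes undetected on all arrays of a group, which were given, on each of those arrays, the level of the dimmest detected probe where their own was lower. These bounds were computed at both offsets, with median scaling and in the deposited values.

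Genes were named by a rule: the 10 genes, the up to 3 called genes with the largest change in each direction per list, genes whose role the text needed, the cell type markers, and the 5 genes most like Grhl2. Neighbouring genes, and genes named as undetected or as the rest of a small count, were added after their values were seen. The genes and lists were chosen with earlier results of these data known. Alternatives covered offset, normalisation, detection filter, probe choice, technical arrays, the replicate block, the variance trend and each replicate left out. The RefSeq gene table served for names and the order of genes. RefSeq promoter windows (GRCm38.p6) matched 7 of the 10 genes.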

Additional observations from a re-analysis of the deposited data

Results flagged for a closer look

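Over the 4 arrays of a group, 3 of 22 sets of log2 levels (11 probes in each group) held 1 array set apart relative to the group's range. For 4 independent arrays, chance alone marks about 1 in 20. The gap to the nearest array, as a share of the group's range, was 0.98 for Grhl2 on control replicate 2, array 1, 0.901 for Ocln on 5-aza-dC replicate 1, array 1, and 0.885 for an Elf3 probe on control replicate 1, array 2. Each of these arrays was the highest of its group and undetected there. In log2 levels the gaps were 0.06 for Grhl2, 0.02 for Ocln and 0.25 for the Elf3 probe. The arrays are technical pairs of 2 replicates and not independent, so the rate of 1 in 20 does not hold for them.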

How the results depend on the processing

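The calls of Grhl2 and Cldn6 remained under all 16 alternatives, with log2 fold changes of 2.11 to 3.34 and 0.59 to 1.34. Members called higher numbered 2 to 4 and members called lower 0 in each. Cldn4 was not tested under the stricter filter (detection p under 0.01 on at least 4 arrays), and it lost its call in the 3 fits named with it. Genes called higher numbered 3888 when each kept probe was counted and 1568 to 2943 with a replicate left out. Values that changed sign were those of genes that did not pass: with arrays scaled to their median Cdh2 (-0.015) and Vim (-0.088), in the deposited values Acta2 (0.123), and with a replicate left out Cdh1 (-0.060 to 0.196), Cdh2 (-0.076 to 0.284), Vim (-0.059 to 0.360) and Acta2 (-0.063 to 0.034). The cause was not tested. With the mean of its kept probes Acta2 was lower (-0.767, limma adjusted p = 0.01542). Its 4 kept probes ran from -1.37 to -0.01, and 3 of them were lower. With arrays scaled to their median the share of higher genes among those called was 43.4%, against 50.5%.

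Same-numbered replicates share only a number. Their deviations from the group means correlated at -0.63. With the replicate number as a block, 2180 genes were higher and 2211 lower, the same 3 members were higher, and among the listed genes Cldnd1 (adjusted p = 0.07831), Pkp2, Twist1 and Thy1 (0.1216) lost their call and S100a4 gained it (0.004994). A crossed pairing, added after seeing the data, gave 3042 higher and 3132 lower. Signal over background is the limit for the other members, which lay near or under detection on both sides, and for the control levels of Grhl2 and Cldn6.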
